A study of Canis lupus familiaris with 11 samples.

Results

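The deposited count table held 26178 rows, of which 1598 were loci without a gene name that the authors had added to the annotated dog genes. Of these, 1103 loci had at least 10 counts in at least 3 of the 11 libraries and are described here, and the other 495 fell under that minimum. The level of a locus therefore chose it, so levels are given as a description. Of the 1103 loci, 658 had at least 10 counts in all 11 libraries and 44 had them in exactly 3, and 1096 passed the filter on low counts of the differential test. Just inside the minimum, with 3 libraries, the highest loci were at means of 0.884 CPM (counts scaled to library size, 39440 bases from PFKFB3) and 0.728 CPM (48419 bases from FAM123B). Just outside it, with 2 libraries, the highest were at 0.742 and 0.652 CPM. Below, a locus with a protein match is called by the symbol of that protein, and one without by its position or the annotated gene beside it.

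A transcript assembler joins aligned RNA-seq reads into transcript models, and models that meet no annotated gene are reported as loci of their own. Such a locus can be a protein-coding gene that the annotation in use lacks, a long non-coding RNA, an unannotated end of a neighbouring gene, or a transcribed repeat such as LINE-1, a retrotransposon whose ORF2 protein is a reverse transcriptase. "Unannotated" is therefore a statement about the annotation used, not about the organism.

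The cells were MDCKII, an epithelial line from dog kidney, and a derivative with a knockout (KO) of LMNA, the gene of the nuclear lamins A and C. Wild-type (WT) control cells (3 libraries) and LMNA KO control cells (2 libraries) were grown for 3 to 4 d to a confluent sheet. WT compressed cells (3 libraries) and LMNA KO compressed cells (3 libraries) were grown in the same way, then laterally compressed and left for 2 h to recover. No sham handling or recovery time is named for the controls, and the sources used here do not say whether the KO line is a single clone. The series' own design line speaks of WT cells at another day and of reseeding, which differs from the sample labels used here. Nothing in the labels states that replicates came from separate cultures, so p-values measure only the spread between these libraries, which may be technical.

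The library totals ran from 10420214 to 17999623 counts. LMNA stood at 679, 1209 and 933 CPM in WT control, at 841, 829 and 751 CPM in WT compressed, at 38.4 and 51.8 CPM in KO control and at 35.5, 25.5 and 43.6 CPM in KO compressed libraries. The KO minus WT difference of LMNA on the log2 scale was -4.38 ± 0.30 (SE) in control cells and -4.53 ± 0.25 in compressed cells (edgeR's quasi-likelihood test with Benjamini-Hochberg adjustment, adjusted p = 1.57e-05 and 1.19e-06). Of 14 epithelial markers listed, 9 were found by name, all at 1 CPM or more, with a sum of 1425 to 1778 CPM. Of the genes found, 0 of 4 endothelial, 1 of 3 immune and 1 of 7 fibroblast genes reached that level. Those lists held 7, 7 and 10 genes, and EMCN, PTPRC and LUM were listed at 0. The libraries farthest from the others of their own group, by the SD of the log2 difference, were KO compressed 2 (0.69), WT control 1 (0.55), KO compressed 1 (0.53) and WT compressed 3 (0.53).

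The loci were shorter and lower in level than annotated genes, and most were spliced. Their exonic length had a median of 1201 bases and ran from 200 to 19755 bases, and the genomic span had a median of 4651 bases. In 955 of 1103 loci (86.6%) the span exceeded the exonic length, so the model has at least 1 intron. Per kilobase of exon, the median level was 2.10 CPM, against 12.7 CPM for the annotated protein-coding genes that were tested. A mean of at least 1 CPM was reached by 864 loci, of at least 10 CPM by 285, and of at least 100 CPM by 44. The 495 loci under the minimum were shorter still, with a median length of 315 bases. The longest spliced loci with a mean of at least 2 CPM were the ZNRF2 locus on chromosome 14 at 19755 bases, a LINE-1 locus 49811 bases from PTPN1 at 14179 bases and the JRK locus on chromosome 13 at 11109 bases.

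Most loci lay close to an annotated gene without overlapping it. The nearest gene was within 5000 bases for 622 loci and within 1000 bases for 342. It was farther than 5000 bases for 458 loci, 20 loci were on sequences with no annotated gene, and 3 overlapped a gene on the same strand. None overlapped a gene on the opposite strand only. The commonest place, within 5000 bases, was upstream of the neighbour and on the opposite strand, where 253 loci lay. A further 135 lay downstream on the opposite strand, 120 downstream on the same strand and 114 upstream on the same strand. The sources used here do not say whether the library kit keeps the strand, and the strand of a spliced model can also be read from its splice sites.

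**Figure D1:**
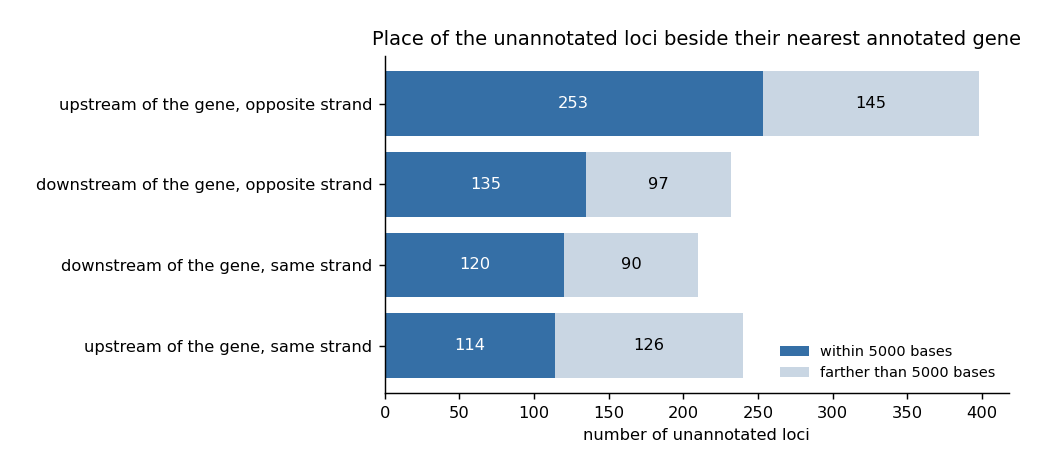
Number of unannotated loci (x axis) by their place beside the nearest annotated gene, with loci within 5000 bases in dark blue and those farther away in light blue. The upstream, opposite-strand place is the fullest, with 253 loci within 5000 bases and 145 farther away.

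The deposited description column matched 308 of the 1103 loci to a known protein of dog or another species, gave 3 a protein domain only and left 792 without any match. The loci with a protein match stood at a median of 5.92 CPM per kilobase and those without at 1.77. By the protein named, 22 loci matched cytosolic ribosomal proteins, the structural proteins of the ribosome, and 32 matched mitochondrial proteins, many of them small subunits of the respiratory chain. Others matched proteins of RNA processing (17), the ubiquitin-proteasome system (13), replication and cell division (11), redox enzymes and selenoproteins (7), the transcription machinery (5), zinc finger proteins (9), endogenous retroviruses (5) and LINE-1 (46), and 141 matched proteins outside these classes. A locus without a match is not shown to lie outside these classes.

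The level per kilobase differed between these classes. The ribosomal protein loci had a median of 36.5 CPM per kilobase and the mitochondrial loci one of 29.9. Loci of RNA processing followed with 28.5, those of the transcription machinery with 22.1, and those of the ubiquitin-proteasome system with 20.9. Zinc finger loci stood at a median of 1.97 and LINE-1 loci at 1.62 CPM per kilobase. The spread within a class was wide, from 1.21 to 833 CPM per kilobase for ribosomal protein loci, so neighbouring classes in this order overlap.

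**Figure D2:**
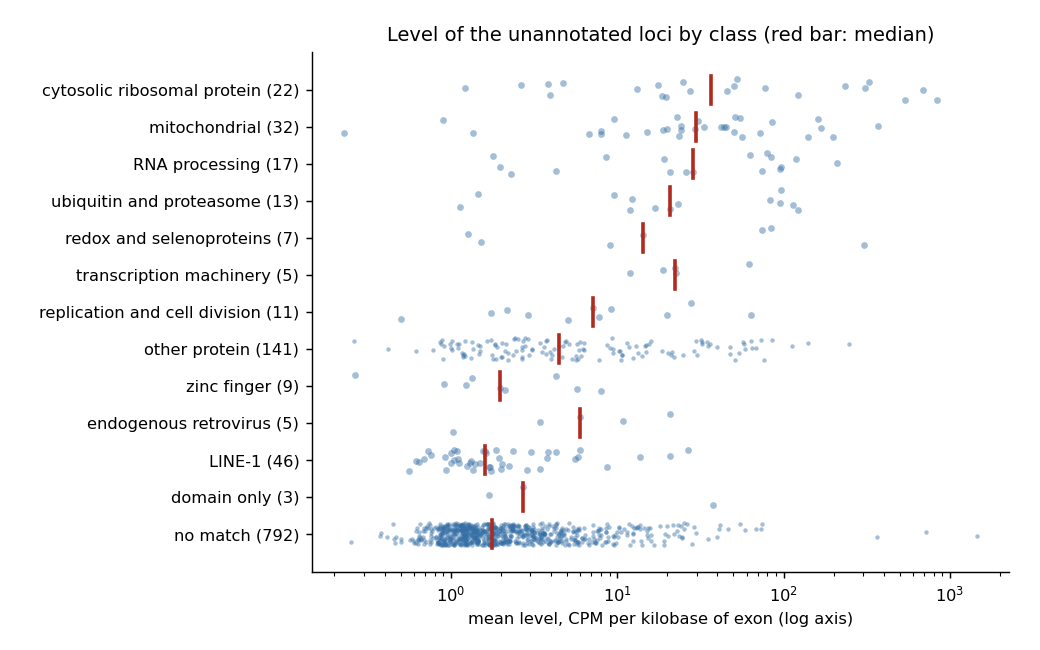
Mean level over the 4 groups in CPM per kilobase of exon (x axis, log scale) of each of the 1103 loci, by protein class (y axis, number of loci in parentheses), with the class median as a red bar. Ribosomal protein loci have a median of 36.5 and reach 833, while the 792 loci without a match have a median of 1.77 and a highest value of 1456.

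The highest locus per kilobase had no protein match. It was at chr10:437396-438763 on the plus strand (CanFam3.1), 597 exonic bases long and 795 bases downstream of PA2G4, which encodes an ErbB3-binding proliferation-associated protein. Its mean level was 1456 CPM per kilobase. In WT control libraries it measured 766, 969 and 1035 CPM, in WT compressed 939.6, 888 and 921 CPM, in KO control 701 and 911 CPM, and in KO compressed 993, 744 and 756 CPM. The groups overlapped in every comparison, and no comparison passed the test. The interval between PA2G4 and ZC3H10, which flank it, holds 1 long non-coding RNA, LOC119873568, in the gene order of RefSeq. Whether the locus is that RNA was not tested, and the lack of a match does not show that it is non-coding.

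The next highest loci were mostly small ribosomal and mitochondrial proteins. The RPS29 locus (chr8:26216286-26223603), a protein of the small ribosomal subunit, stood at 833 CPM per kilobase, and the RPS13 locus (chr21:39685391-39688915) at 691. The RPS28 locus stood at 536 and the RPL37A locus at 326. The locus of NDUFA4, a respiratory chain subunit, stood at 368, that of RPS27L, a ribosomal protein paralog, at 306 and that of TXN, the small redox protein thioredoxin, at 305. Without a match, a locus at chrX:91791842-91812372 beside SNORA69 stood at 722 CPM per kilobase, and one at chr9:45506777-45507822, 7363 bases from YWHAE, at 363. Ribosomal protein genes have many near-identical copies, and the sources used here do not say how reads that fit several copies were counted, so these levels are uncertain.

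Many matched loci sat where RefSeq places the gene of the matched name. RefSeq's dog annotation, of another assembly (UU_Cfam_GSD_1.0), was used for names and gene order only, and it held 206 of the 236 distinct matched symbols. For 154 loci, an annotated gene among the 3 on either side of the locus was within 5 genes of the matched symbol in RefSeq order. Of these 154 loci, 153 were spliced and their median level was 40.1 CPM. For 46 loci the neighbours were other genes, 39 of them were spliced, and the median level was 2.48 CPM.

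An annotated gene already carried the matched name for 99 loci. Among the loci with the RefSeq neighbours of their match, 49 had such a namesake, and for 23 of these it lay on another chromosome. In 19 of these 23 the locus was spliced and the annotated copy had a single exon, and in the other 4 both were spliced. The locus was higher per kilobase than the annotated copy in 22 of 23. The exception was the NDUFB6 locus (chr11:49821335-49830313), at 43.7 CPM per kilobase against 145 for the annotated NDUFB6. Among the 34 loci with other neighbours and a namesake, 30 namesakes were on another chromosome, and the locus was the higher in 9 of these.

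The levels show how uneven such pairs were. The RPS27L locus, at chr30:27749202-27753262, stood at 306 CPM per kilobase, and the annotated RPS27L on chromosome 26 at 5.84. The TXN locus, at chr11:65227295-65240932, stood at 305, and the annotated TXN on chromosome X at 70.7. The locus of RPLP1, a ribosomal stalk protein, stood at 235 CPM per kilobase and the RPL38 locus at 45.6, while the annotated RPLP1 and RPL38, both on chromosome 8, had 0 counts in 11 libraries, which allows up to 0.0193 CPM (3 counts of the total, counting error only). Reads shared between a gene and its copy could be split between them, and this was not tested.

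**Figure D3:**
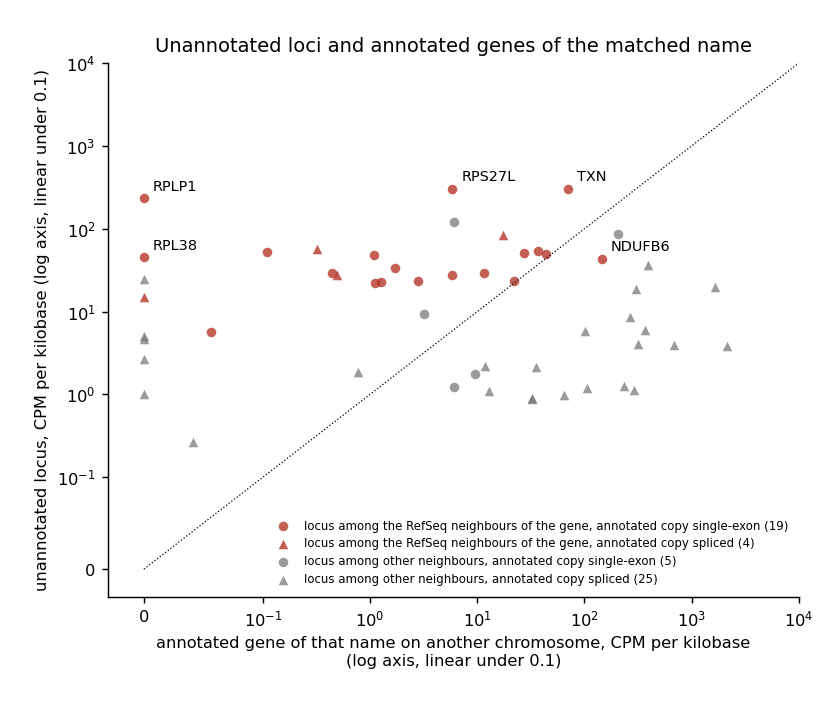
Level of an unannotated locus (y axis) against that of the annotated gene of the matched name on another chromosome (x axis), both in CPM per kilobase on log axes that are linear under 0.1, with the line of equality dotted. Of the 23 red points (locus among the RefSeq neighbours of its match), 22 lie above the line, NDUFB6 being the exception, and 9 of the 30 grey points (other neighbours) do.

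Some matched loci were next to the very gene they matched, or were parts of one another. For 20 loci the nearest annotated gene had the name of the match. A locus matched to RBM25, a splicing factor, lay 746 bases downstream of RBM25 on the same strand, and one matched to PHF12 lay 421 bases downstream of PHF12. At chr17:34472629-34492988 and chr17:34493284-34505397, with 295 bases between them, 2 loci both matched SNRNP200, a helicase of the spliceosome. Their mean levels were 62.5 and 84.3 CPM per kilobase. On chromosome 10, 2 loci both matched ANKRD23 with a gap of 945 bases. Whether such loci are parts of 1 gene was not tested, and they are not counted as independent of each other.

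The loci without a match often lay between genes that have a long non-coding RNA between them in RefSeq. For 397 of the 792, RefSeq held both flanking genes on the same chromosome with at most 20 genes between them. For 277 of these (69.8%) it lists at least 1 long non-coding RNA between the flanks, and for 96 at least 1 protein-coding gene. For 210 loci the interval held a long non-coding RNA and no protein-coding gene. Among all 8902 neighbouring pairs of annotated protein-coding genes, 36.0% had a long non-coding RNA between them. For LINE-1 loci the count was 14 of 17. Loci that share an interval were each counted, while each gene pair was counted once, so these shares have unlike units. Longer intervals hold more of every kind of gene, and interval length was not compared.

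The loci together took about 2 in every 100 counts. In percent of the library's counts, the 1598 loci held 1.97, 1.93 and 1.91 in WT control, 2.22, 2.15 and 2.42 in WT compressed, 1.95 and 2.08 in KO control, and 2.38, 2.31 and 2.03 in KO compressed. WT compressed libraries were all above WT control libraries, and the KO groups overlapped through KO compressed 3. Within genotype, the compressed minus control difference was 0.276 percentage points (exact permutation test over 200 rearrangements, two-sided p = 0.015, and 0.09 when adjusted over the 6 tests of this share). In WT alone it was 0.326 points (exact permutation p = 0.1, the smallest that 3 against 3 libraries allow), from 1.94% ± 0.031 (SD, n = 3) to 2.26% ± 0.141 (SD, n = 3). In KO alone it was 0.225 points (exact permutation p = 0.3), from 2.02% ± 0.097 (n = 2) to 2.24% ± 0.189 (n = 3). KO minus WT within treatment was 0.0284 points (exact permutation p = 0.7). The ribosomal protein loci held 0.204 to 0.226% in WT control, 0.263 to 0.352% in WT compressed, 0.162 to 0.192% in KO control and 0.297, 0.282 and 0.188% in KO compressed 1, 2 and 3. Without them, the within-genotype difference in the share of the 1103 loci was 0.194 points.

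Compression of WT cells was associated with higher levels of several ribosomal and mitochondrial protein loci and of the TXN locus, and with lower levels of a few other loci. In all, 49 of 1096 tested loci (36 higher, 13 lower) passed an adjusted p of 0.05 in edgeR's quasi-likelihood test, which is 4.47%, against 6.25% of all 13560 features tested (3.85% higher and 2.4% lower). The share is not above that of all features, so the count is no result about these loci as a group. Adjusted p-values ran from 0.041 to 0.0498, and 264 of the loci were under an unadjusted 0.05 (24.1%, against 31.8% of all features). Sizes on the log2 scale ran from +0.61 to +2.20, and from -0.88 to -3.78 for the loci that fell, leaving out 1 locus with a single count in the WT compressed group. The -3.78 belongs to the locus near TRIM8, which had very few counts in WT compressed libraries, so its size is uncertain. All 49 were chosen here by that test. The libraries of the WT groups did not overlap for any of them, which is no separate support. The share without overlap over all features was not counted. The calls are fragile: with 1 library left out, the count was 0 without WT control 2, any WT compressed library or either KO control library, 1 without WT control 3, and between 62 and 156 without WT control 1 or a KO compressed library.

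The median log2 difference over the 1096 loci was 0.13, against -0.02 over all features. By class, it was 0.46 for ribosomal protein loci, 0.57 for mitochondrial, 0.59 for transcription machinery, 0.51 for replication and cell division, 0.40 for redox, 0.38 for ubiquitin-proteasome, 0.33 for RNA processing and 0.33 for LINE-1 loci. For loci without a match the median was 0.10, for zinc finger loci 0.03, for the 141 loci outside the classes 0.01 and for endogenous retroviruses -0.27. Across the fits that leave out 1 library, the median ran from 0.36 to 0.56 for ribosomal protein loci and from 0.38 to 0.66 for mitochondrial loci.

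**Figure D4:**
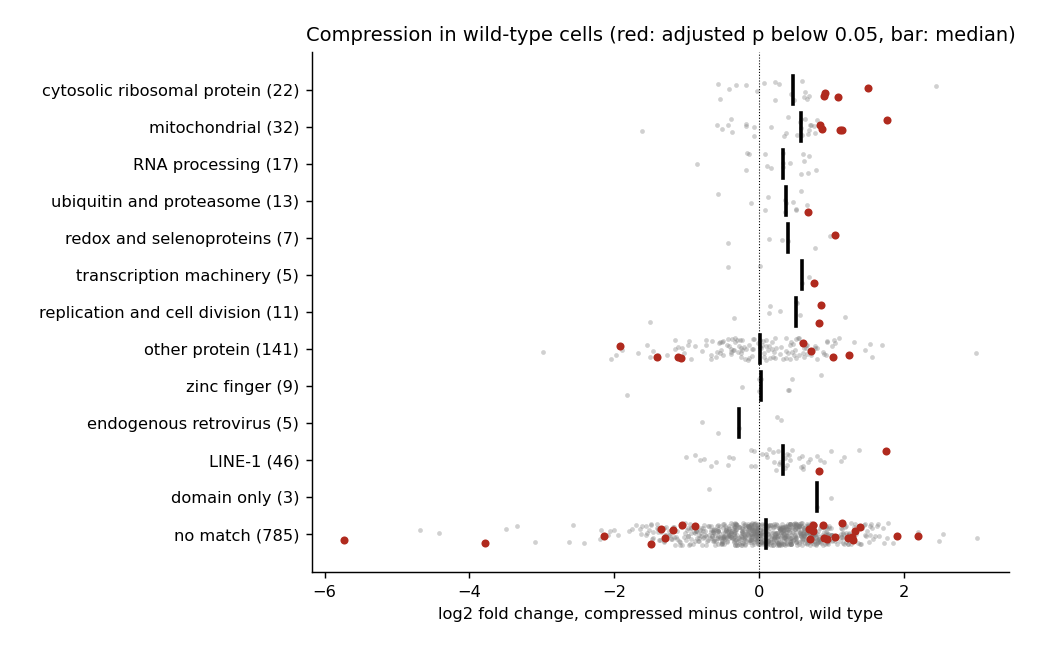
Log2 fold change of WT compressed minus WT control (x axis) of each tested locus, by protein class (y axis, number tested in parentheses), with loci past an adjusted p of 0.05 in red and the class median as a black bar. Called ribosomal and mitochondrial loci are all on the positive side, and the 25 called loci without a match lie on both sides, 16 higher and 9 lower. The leftmost point is the locus with a single count in the WT compressed group, and its position is not read as a fold.

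Of 22 ribosomal protein loci, 4 rose with compression in WT cells (18.2%, against 6.25% of all features in either direction and 3.85% higher), none fell, and 16 had a positive value. The class was chosen with earlier results of these data known, so its share is a description and not a test. Its calls are as fragile to the loss of a library as the others. The share of counts on mitochondrially encoded genes also separated the WT groups, at 3.84, 2.71 and 2.61% in WT control and 2.10, 2.07 and 2.22% in WT compressed libraries, and its part in the WT values of the ribosomal and mitochondrial loci was not tested. The RPL38 locus (chr9:6161789-6166544) measured 27.0, 17.6 and 21.6 CPM in WT control and 58.1, 47.4 and 83.3 CPM in WT compressed libraries. It measured 15 and 20.6 CPM in KO control and 44.3, 57.0 and 20.8 CPM in KO compressed libraries. The WT groups stood apart, and in KO cells the third compressed library was level with the higher control. The WT difference was +1.51 ± 0.33 (SE, adjusted p = 0.041) and the KO value +1.19 ± 0.37 (adjusted p = 0.773).

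The other ribosomal calls were smaller. The RPS27L locus went from 144, 144 and 148 CPM to 249.96, 195 and 375 CPM in WT cells, a difference of +0.91 ± 0.25 (adjusted p = 0.0484). The RPL37 locus (chr4:68553444-68556173) rose by 0.90 ± 0.22 on the log2 scale (adjusted p = 0.0435) and the RPL12 locus at chr28:21853887-21864213 by 1.09 ± 0.30 (adjusted p = 0.0489). In KO cells the values of these were +0.84, +1.19 and +1.26, none past the adjusted threshold. The most abundant, the RPS13 locus at 462 CPM and the RPS29 locus at 359.9 CPM, had WT values of +0.63 and +0.60 with adjusted p of 0.07 and 0.0814. Among the 57 annotated ribosomal protein genes, 5 were called, all higher, with a median of 0.34. KO compressed 3, the compressed library with the lowest ribosomal protein share, had the highest share of counts on mitochondrially encoded genes (4.74%, against 2.07 to 3.84% in the other 10 libraries), and its part in the KO values was not tested.

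Of 32 mitochondrial loci, 5 rose in WT cells (15.6%, against 6.25% of all features and 3.85% higher) and none fell. The same limits hold for this class and its share. The locus of COX6C, a subunit of cytochrome c oxidase, at chr13:1835302-1852118, measured 21.6, 12.5 and 57.4 CPM in WT control and 79.3, 88.2 and 145 CPM in WT compressed libraries. In KO libraries it measured 67.6 and 82.2 CPM without and 80.9, 112 and 74.1 CPM with compression. The KO groups overlapped, and both stood above all WT control libraries. The WT difference was +1.77 ± 0.43 (adjusted p = 0.0428), the KO value +0.25 ± 0.46, and the interaction -1.52 ± 0.62 (adjusted p = 0.939).

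The other mitochondrial calls differed less between their WT control libraries. The locus of MPC1, a subunit of the mitochondrial pyruvate carrier, went from 22.3, 21.1 and 17.6 CPM to 48.1, 31.3 and 55.2 CPM, a difference of +1.14 ± 0.26 (adjusted p = 0.041). The NDUFB6 locus rose by 1.12 ± 0.29, the NDUFC1 locus by 0.85 ± 0.22 and the locus of STMP1, a short mitochondrial protein, by 0.88 ± 0.17 on the log2 scale. NDUFB6 and NDUFC1 are subunits of respiratory complex I. Among the 64 annotated respiratory chain genes of the nuclear genome, 1 was called, with a median of 0.19.

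Other called loci with a match covered redox, transcription and division. The TXN locus measured 501, 423 and 459 CPM in WT control and 835, 736 and 1303 CPM in WT compressed libraries. In KO libraries it measured 461 and 531 CPM, and 895, 1068 and 575 CPM after compression. The compressed libraries were above the controls in both genotypes. The WT difference was +1.06 ± 0.23 (adjusted p = 0.041) and the KO value +0.77 ± 0.26 (adjusted p = 0.773). The annotated TXN on chromosome X, which may share reads with it, rose by 1.63 ± 0.38 (adjusted p = 0.0415).

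Loci of the replication and transcription classes rose by less. The locus of RPA3, a subunit of the single-strand DNA-binding protein RPA, rose by 0.83 ± 0.17 and that of NCAPG, a condensin subunit, by 0.85. The locus of POLR2K, a subunit shared by the RNA polymerases, rose by 0.77 ± 0.16 and that of RBX1, the RING subunit of cullin ubiquitin ligases, by 0.68 ± 0.15. The locus of BET1, a SNARE of transport from the endoplasmic reticulum, rose by 0.72 ± 0.16 and that of GNG10, a G protein gamma subunit, by 0.61 ± 0.16, the smallest of the increases.

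Among 785 tested loci without a match, 16 rose and 9 fell, 3.18% against 6.25% of all features. The most abundant, on an unplaced sequence 6397 bases from HENMT1, went from 218, 132 and 134 CPM to 312, 285 and 299 CPM in WT cells. It measured 331 and 322 CPM in KO control and 318, 462 and 331 CPM in KO compressed libraries, so all KO libraries were above the WT compressed ones. Its WT difference was +0.89 ± 0.20 (adjusted p = 0.041). The largest increases were at low levels. A locus at chr28:1985067-1993866, beside ZFAND4, had 0.315, 0.403 and 0.611 CPM in WT control and 2.46, 2.46 and 1.31 CPM in WT compressed libraries (+2.20 ± 0.51, adjusted p = 0.0415). A locus at chr29:14419641-14443925, 935 bases from CYP7B1, an oxysterol hydroxylase gene, went from 2.60, 4.76 and 3.18 CPM to 11.4, 6.86 and 9.49 CPM (+1.39 ± 0.32, adjusted p = 0.0414).

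A locus without a match at chr14:18061311-18062594, 5128 bases from GATAD1, had 11.3, 3.02 and 2.50 CPM in WT control and 20.2, 20.4 and 21.6 CPM in WT compressed libraries. In KO libraries it had 22 and 15.9 CPM, and 9.78, 13.2 and 16.6 CPM after compression. It rose by 1.91 ± 0.45 on the log2 scale in WT cells (adjusted p = 0.0415), and the KO value was -0.52 ± 0.47. The interaction was -2.43 ± 0.64, with an unadjusted p of 0.00216 and an adjusted p of 0.939 in edgeR's quasi-likelihood test. GATAD1, a GATA zinc finger gene, rose by 1.36 ± 0.22 in WT cells (adjusted p = 0.041). Without the strand of the kit, reads of neighbours that run together cannot be told apart.

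Of 46 LINE-1 loci, 2 rose in WT cells and none fell, 4.35% against 6.25% of all features. The LINE-1 locus at chr14:22834548-22863591 had 27.8, 28.2 and 26.3 CPM in WT control and 43.0, 45.8 and 57.8 CPM in WT compressed libraries. In KO libraries it had 39.6 and 46.5 CPM, and 41.9, 39.4 and 37.6 CPM after compression, so WT control stood below all other libraries. Its WT difference was +0.83 ± 0.17 (adjusted p = 0.041), its KO value -0.12 ± 0.19 and its interaction -0.95 ± 0.25 (unadjusted p = 0.002, adjusted p = 0.939). The LINE-1 locus at chr6:25584315-25585657 rose by 1.76 ± 0.40 in WT cells (adjusted p = 0.041), from a mean of 1.13 to 3.85 CPM. The most abundant, at chr35:22787851-22796755 and 99.5 CPM, had a WT value of +0.20 ± 0.19. LINE-1 copies are repeated through the genome, so the reads of any 1 locus are uncertain.

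Among the 13 loci that fell, some lay beside a gene with a negative WT value too. Neighbours of the same sign were common within 5000 bases, at 59.9% for loci and 73.8% for annotated protein-coding genes. A shared fall is therefore not shown to be particular to these loci. A locus without a match at chr2:69530560-69534434 on the plus strand starts 7 bases from TINAGL1, which is on the opposite strand and encodes a secreted matrix protein. It had 6.46, 9.39 and 6.84 CPM in WT control and 1.15, 2.54 and 1.41 CPM in WT compressed libraries. In KO libraries it had 6.17 and 6.46 CPM, and 2.69, 3.42 and 4.21 CPM after compression. Compressed libraries were below controls in both genotypes, and the WT difference was -2.15 ± 0.35 (adjusted p = 0.041) and the KO value -0.87 ± 0.36 (adjusted p = 0.773). TINAGL1 itself had a WT value of -0.84 ± 0.30 (adjusted p = 0.0854). RefSeq places a protein-coding gene, LOC102153601, between TINAGL1 and SERINC2, where the locus lies.

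A locus at chr18:43083845-43086293 matched MDK, the growth factor midkine, and lay 5 bases from CHRM4, a muscarinic receptor gene, on the opposite strand. It fell by 1.41 ± 0.34 on the log2 scale in WT cells (adjusted p = 0.0428), from 9.77, 16.2 and 11.2 CPM to 3.77, 7.03 and 3.13 CPM. In KO libraries it had 15.9 and 10.48 CPM, and 13.9, 8.95 and 9.71 CPM after compression, which overlap. CHRM4 fell by 1.04 ± 0.25 (adjusted p = 0.0426).

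A locus at chr13:37401002-37408667, matched to EPPK1, the cytoskeletal linker epiplakin, fell by 1.91 ± 0.52 (adjusted p = 0.0484), and the nearby NRBP2 by 1.16 ± 0.28 (adjusted p = 0.0418). A second locus matched to EPPK1 overlapped it on the opposite strand and was not among those called as lower. At chr7:79124298-79133444 and chr7:79163999-79168808, between ACAA2 and LIPG, 2 loci without a match fell by 1.49 ± 0.37 and 1.35 ± 0.37. LIPG, which encodes endothelial lipase, fell by 1.27 ± 0.20 (adjusted p = 0.041), and ACAA2 had a value of -0.03. A locus of 347 bases at chr28:15123244-15123590, 452 bases from TRIM8, went from 0.867, 2.75 and 1.47 CPM to 0.0769, 0.169 and 0.101 CPM in WT cells, and from 1.43 and 1.36 CPM to 0.149, 0.175 and 0.371 CPM in KO cells. It had at least 10 counts in the 5 control libraries only, so it was analysed through the groups in which it was high. TRIM8, a ubiquitin ligase gene, fell by 0.90 ± 0.24 in WT cells (adjusted p = 0.0471).

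Other loci called as lower lay elsewhere. The locus of LAMA5, a laminin chain of basement membranes, on a sequence without an annotated gene, fell by 1.08 ± 0.26 (adjusted p = 0.0431), from 93.6, 100.5 and 86.6 CPM to 43.9, 58.7 and 30.5 CPM. The JRK locus fell by 1.12 ± 0.26 (adjusted p = 0.0415). A locus at chr2:30832370-30857279 was called as lower at 4.73, 0.738 and 0.611 CPM in WT control and 0, 0.0847 and 0 CPM in WT compressed libraries. With 1 count in the WT compressed group it is given without a fold, and in KO libraries it had 1.05 and 2.66 CPM, and 3.14, 0.877 and 2.29 CPM after compression.

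**Figure D5:**
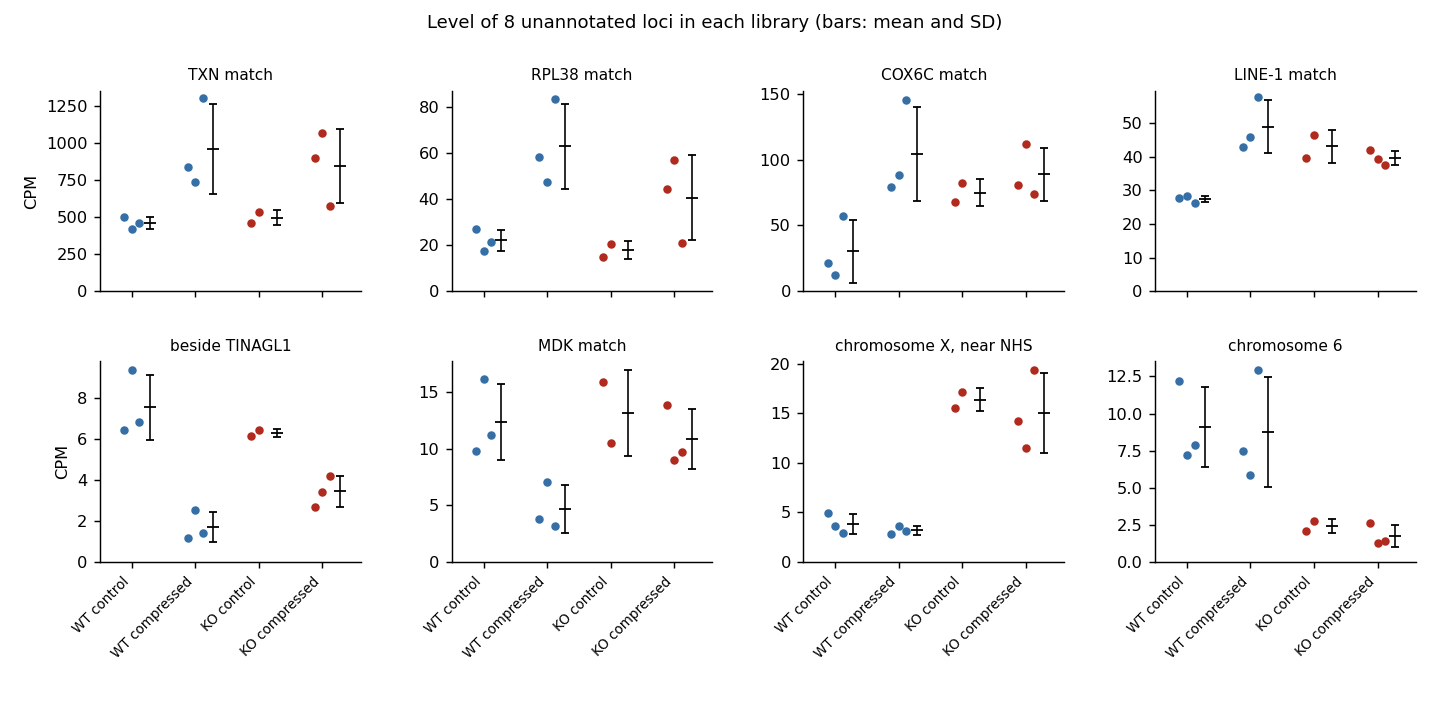
CPM (y axes, from 0) of 8 loci in each library, by group (x axis), WT in blue and KO in red, with the mean and SD of each group as bars. The TXN, RPL38, COX6C and LINE-1 loci are higher in WT compressed than in WT control libraries, the loci beside TINAGL1 and of MDK are lower, and the loci on chromosome X (near NHS) and chromosome 6 separate KO from WT libraries.

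Compression of LMNA KO cells called none of the 1096 loci and 0% of all features in edgeR's quasi-likelihood test, and DESeq2 called 0 loci too. At an unadjusted p of 0.05 there were 90 loci (8.21%, against 6.11% of all features). The median over the loci was 0.12, against -0.004 over all features. For ribosomal protein loci it was 0.65 (0.34 for the annotated ribosomal protein genes) and for mitochondrial loci 0.20. The 36 loci that rose in WT cells had a median KO value of 0.39, positive in 32, and the 13 that fell had one of -0.43, negative in 12. Over all 1096 loci, 657 KO values were positive, as were 6702 of 13560 features. Agreement of sign was not counted for the other features called in WT cells, so it is no result about these loci. The smallest unadjusted p-values included the RPL37 locus, with 43.9 and 52.9 CPM in KO control and 139, 121 and 71.7 CPM in KO compressed libraries (unadjusted p = 0.000433, adjusted p = 0.773). In simulated counts, the fit found 5% of 2-fold changes in this comparison, so the absence of calls does not show an absence of change.

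The interaction, which tests whether the effect of compression differs between the genotypes, called no locus and 0% of all features (63 loci under an unadjusted 0.05, or 5.75%, against 4.79%, and 0 by DESeq2). Passing the test in WT and not in KO cells is therefore not shown to be a difference between them.

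Few loci were called between LMNA KO and WT cells. In simulated counts, the test found 3.5% of 2-fold changes in control cells and 7.5% in compressed cells. Few calls therefore do not show that the cells are alike. In control cells 1 of 1096 loci was called, higher in KO, against 0.339% of all features (0.133% higher and 0.206% lower). In compressed cells 4 were called, 3 higher and 1 lower, against 0.789% (0.509% higher and 0.28% lower). At an unadjusted p of 0.05 there were 104 loci in control cells (9.49%, against 7.79% of all features) and 116 in compressed cells (10.6%, against 11.3%). The clearest had no match and was at chrX:13684081-13693737 on the minus strand, 5041 exonic bases long and 88410 bases from NHS. It had 4.88, 3.56 and 2.87 CPM in WT control, 2.77, 3.64 and 3.13 CPM in WT compressed, 15.6 and 17.2 CPM in KO control and 14.3, 11.5 and 19.4 CPM in KO compressed libraries. All 5 KO libraries were above all 6 WT libraries. The KO minus WT difference was +2.13 ± 0.30 in control cells (adjusted p = 0.0065) and +2.24 ± 0.29 in compressed cells (adjusted p = 0.00204). The second was called in each fit that left out 1 library, and the first was lost without either KO control library. NHS, a regulator of actin remodelling, had values of +0.30 and -0.39, and RefSeq lists 2 long non-coding RNAs between REPS2 and NHS.

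The other calls were in compressed cells alone. A locus at chr14:42004687-42008188 was higher in KO by 1.46 ± 0.28 (adjusted p = 0.0256), and in control cells its value was +1.46 ± 0.31 (adjusted p = 0.077). One on an unplaced sequence, 268 bases from the annotated ENSCAFG00000032238, was higher in KO by 0.98 ± 0.20 (adjusted p = 0.0389), with 16.5, 17.0 and 15.4 CPM in WT and 34.2, 31.8 and 30.2 CPM in KO compressed libraries. The locus at chr6:54632045-54639139 had 12.2, 7.18 and 7.88 CPM in WT control and 7.46, 5.84 and 12.9 CPM in WT compressed libraries. It had 2.09 and 2.72 CPM in KO control and 2.61, 1.23 and 1.42 CPM in KO compressed libraries, all below every WT library. Its difference was -2.30 ± 0.40 in compressed cells (adjusted p = 0.0151) and -1.91 ± 0.44 in control cells (adjusted p = 0.129).

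No ribosomal protein locus was called between the genotypes, though 19 of 22 had a negative KO minus WT value in each of the comparisons, with medians of -0.31 in control and -0.22 in compressed cells. Of the 57 annotated ribosomal protein genes, 39 and 43 were negative, with medians of -0.10 and -0.07. Over all 13560 features, 7015 and 6914 were negative. The loci share libraries, so their signs are not independent. The KO minus WT medians over all 1096 loci were 0.03 in both. Of the 100 tested loci longer than 4000 bases, 75 had a positive value in control cells with a median of 0.25, against 0.05 for annotated genes of that length. Their median was 0.08 in compressed cells, where the annotated genes had -0.01. Of the 442 tested loci of up to 1000 bases, 181 had a positive value in control cells. Their median was -0.12, against -0.05 for annotated genes of that length. The 331 and 223 loci of lengths between, in rising order, had medians of 0.03 and 0.11. In compressed cells the loci of up to 1000 bases had a median of -0.03. The ribosomal protein loci had a median length of 686.5 bases, and the part of length in their values was not tested.

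By Pearson's r of log2 CPM over the 11 libraries, the annotated genes most like the chromosome X locus near NHS were STRA6 (0.95), HEPH (0.95) and CAPN13 (0.95). Those most like the locus beside TINAGL1 were IDUA (0.96), SEMA4C (0.96) and PAF1 (0.95), and those most like the chromosome 6 locus were CTNND2 (0.97), UXS1 (0.95) and FHOD3 (0.94). These are the highest of all annotated genes with a symbol, and the points share the genotype or treatment of the libraries.

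The WT compression values of loci and of their nearest genes were also compared in sign, as a description of these libraries without a test. Within 5000 bases, 322 of 538 pairs (59.9%) had WT compression values of the same sign, with r = 0.30 across pairs. For annotated protein-coding genes within 5000 bases of their nearest gene the share was 73.8% and r = 0.41. Loci upstream on the opposite strand had the lowest share, 53.4% with r = 0.13. Those downstream on the opposite strand had 66.3% with r = 0.53. The pairs share libraries, and the loci have lower counts than annotated genes.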

How the data were processed

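Counts per gene were deposited by the authors as whole numbers without normalization. Their FPKM table (deposited by the authors) served as an alternative. The submitters' processing notes name CASAVA, FastQC, HISAT2 2.0.5 and the build CanFam3.1, and the sources used here do not give the assembler, counter or annotation release. RNA was captured with oligo(dT), per the labels' protocols.

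In R 4.3.3 with edgeR 4.0.16, features passing filterByExpr (13560) were scaled by TMM and fitted in 1 quasi-likelihood model of 4 groups over 11 libraries (7 residual degrees of freedom), two-sided, with Benjamini-Hochberg adjustment at 0.05. "Called" means past it. CPM are TMM-scaled. DESeq2 1.42.0 and limma 3.58.1 on log2(FPKM + 1) were alternatives. The fit was tested on simulated counts with 200 changed loci per comparison. Of 2-fold changes it found 2% for WT compression and 5% for KO compression. For KO minus WT it found 3.5% in control and 7.5% in compressed cells. Of 4-fold changes it found, in the same order, 60.5%, 40%, 46.5% and 54%. All other features were unchanged in these simulations, while 848 of 13560 were called in the real WT comparison. The simulated shares for WT compression are therefore not its detection rate. At this depth a locus under about 1 CPM has few reads.

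The loci, protein classes and comparison lists were chosen with earlier results of these data known. Loci named are the highest per kilobase, the longest spliced, and per comparison up to 6 called increases and decreases with at least 2 CPM and no overlap (or the 3 smallest p); other loci named were chosen after their values were seen. No genome of the build was used here, so sequences were not analysed here.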

Additional observations from a re-analysis of the deposited data

How the results depend on the processing

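The count of WT compression calls (49) was 138 by DESeq2, 97 with no filter on low counts, 108 with the WT libraries alone, and 0 by limma on log2(FPKM + 1) and on log2(FPKM + 0.1). It stayed within 1.5 times under RLE scaling (49), library size alone (38), a 1 CPM filter (55) and a robust fit (48), and ran from 0 to 156 with 1 library left out. KO compression gave 0 under each alternative run. KO minus WT in control cells (1) gave 11 by DESeq2, 8 with no filter, 0 and 0 by limma, and 0 to 7 with 1 library left out. In compressed cells (4) it gave 24 by DESeq2, 10 with no filter, 1 and 1 by limma, and 2 to 14 with 1 library left out. The interaction gave 0 to 1 with 1 library left out, the 1 being without WT control 1; it needs all groups, so a fit of the groups compared alone was not run. The cause of these changes was not tested.

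Replicate numbers did not pair the libraries, with correlations of deviations between same-numbered libraries from -0.349 to 0.201. With a replicate block the WT count was 0, the KO count 0, the KO minus WT counts 1 and 2, and the interaction count 0.

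For the share of counts of all 1598 loci, KO minus WT was 0.0284 points and ran from -0.00756 to 0.0820 with 1 library left out, being negative without KO compressed 1 and without KO control 2 (-0.00582). For the loci with no match alone it was 0.0509 (exact permutation p = 0.04, and 0.12 adjusted over 6 tests; chosen after seeing the data). The compression difference of all 1598 loci ran from 0.236 to 0.329. The number of loci near a gene was 342 within 1000 bases and 726 within 10000, against 622.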
